A study of Mus musculus with 2 samples.

Results

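Of 27898 open chromatin regions of mouse blood monocytes on chromosomes 1 to 19, 727 lay at the start of a long noncoding RNA (lncRNA) gene and away from every protein-coding start. Overlapping peaks of the conservative peak set of the series were first merged into regions. A region was kept where its edge lay more than 1 kb from every protein-coding transcription start and within 1 kb of an annotated start of a lncRNA gene in the GENCODE mouse annotation on mm10. The other regions were 10306 coding promoter regions, within 1 kb of a protein-coding start, and 16865 other distal regions. By the type of the nearest lncRNA gene, 432 of the 727 regions lay at long intergenic RNAs, 177 at antisense RNAs, 115 at processed transcripts and 3 at RNAs of bidirectional promoters.

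The data are ATAC-seq, which uses a transposase to cut and tag DNA that is not covered by nucleosomes, on monocytes of peripheral blood from adult C57BL/6J mice 5 to 6 weeks old. There was 1 group with 2 biological replicates of 50000 cells each, with no treatment and no genotype other than the strain named in the labels. Both replicates carry 1 donor identifier, and nothing in the labels tells separate animals from a shared pool. The SD between replicates may thus be only technical. The files hold peaks and no read counts, so the depth of either library is unknown.

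Long noncoding RNAs are transcripts with little or no coding potential. Many are spliced and capped like messenger RNAs, and some are the hosts from which small nucleolar RNAs or microRNAs are cut. Starts of noncoding genes can be CpG-rich, as most promoters of broadly expressed coding genes are, or CpG-poor and placed in elements that also work as enhancers. In monocytes, which leave the blood to become macrophages, such elements are known to be bound by PU.1 with C/EBP, RUNX, AP-1 and IRF factors.

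The regions fell on both sides of that division. A CpG ratio, the observed number of CpG dinucleotides over the number that the C and G content gives, was taken within 500 bp of each summit, and a ratio of 0.6 or more was called CpG-rich. Of the 727 regions, 154 (21.2%) were CpG-rich and 573 were CpG-poor. Where regions are called CpG-rich or CpG-poor lncRNA starts below, the class is that of the sequence around the summit. The sequences below, from GRCm38 (mm10), show both kinds. Each runs 75 bp to each side of the summit, 5′ to 3′ on the strand of the lncRNA, and capitals mark matches to searched strings of factor motifs. The first set was chosen for strong or well-known starts, all of which but Malat1 carry strings of housekeeping promoters. The strings are GGGCGG (SP/KLF), CCGGAAG (ETS) and GATTGG (NF-Y), each read on either strand, and GAGGAAG (PU.1) in Kcnq1ot1.
Snhg6, chr1:9944100-9944250, minus strand: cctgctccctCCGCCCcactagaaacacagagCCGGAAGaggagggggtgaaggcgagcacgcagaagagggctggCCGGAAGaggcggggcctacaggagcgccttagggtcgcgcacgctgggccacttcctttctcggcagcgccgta
5430416N02Rik, chr5:100429517-100429667, minus strand: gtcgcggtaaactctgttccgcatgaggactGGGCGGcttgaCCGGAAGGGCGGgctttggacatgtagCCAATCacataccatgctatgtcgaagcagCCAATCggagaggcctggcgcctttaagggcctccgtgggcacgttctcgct
Dancr, chr5:74092903-74093053, plus strand: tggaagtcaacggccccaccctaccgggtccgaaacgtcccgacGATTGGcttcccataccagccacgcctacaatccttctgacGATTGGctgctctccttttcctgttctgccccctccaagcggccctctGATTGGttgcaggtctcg
Malat1, chr19:5802611-5802761, minus strand: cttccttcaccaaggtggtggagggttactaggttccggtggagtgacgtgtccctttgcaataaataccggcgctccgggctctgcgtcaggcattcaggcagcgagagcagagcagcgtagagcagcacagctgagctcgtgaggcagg
BC002059, chr17:16951395-16951545, plus strand: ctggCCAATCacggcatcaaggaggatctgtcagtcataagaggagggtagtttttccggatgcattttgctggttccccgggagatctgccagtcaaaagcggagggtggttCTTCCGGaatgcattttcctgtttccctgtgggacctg
Gm6712, chr17:17294273-17294423, plus strand: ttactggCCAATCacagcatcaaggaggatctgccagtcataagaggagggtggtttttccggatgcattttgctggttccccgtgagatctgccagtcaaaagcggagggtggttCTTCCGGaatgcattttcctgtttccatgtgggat
Kcnq1ot1, chr7:143296551-143296701, minus strand: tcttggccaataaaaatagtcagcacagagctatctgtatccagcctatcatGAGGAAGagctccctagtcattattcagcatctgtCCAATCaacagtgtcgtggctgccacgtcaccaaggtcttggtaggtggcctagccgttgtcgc
Snhg6, 5430416N02Rik, Dancr and Malat1 were CpG-rich, with ratios of 0.742, 0.785, 0.63 and 0.634. BC002059, Gm6712 and Kcnq1ot1 were not, with ratios of 0.409, 0.396 and 0.406, and still held an NF-Y string. The Malat1 window, of the region whose summit lay 14 bp upstream of its start, held none of the searched strings.

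The second set shows CpG-poor starts with strings of myeloid factors. These are GAGGAAG (PU.1), TTGCNNAA (C/EBP), TGANTCA (AP-1) and TGTGGTT (RUNX), and 1 match to the CTCF core string CCANNAGNG in Gm14009.
Il1bos, chr2:129373428-129373578, plus strand: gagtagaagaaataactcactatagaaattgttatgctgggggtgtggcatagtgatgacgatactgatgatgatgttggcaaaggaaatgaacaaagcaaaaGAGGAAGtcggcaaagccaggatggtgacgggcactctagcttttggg
Ptgs2os2, chr1:150165023-150165173, minus strand: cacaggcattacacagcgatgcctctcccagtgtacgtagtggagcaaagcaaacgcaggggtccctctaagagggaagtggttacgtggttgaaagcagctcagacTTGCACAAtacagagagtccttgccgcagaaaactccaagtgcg
9030404E10Rik, chr16:30039424-30039574, minus strand: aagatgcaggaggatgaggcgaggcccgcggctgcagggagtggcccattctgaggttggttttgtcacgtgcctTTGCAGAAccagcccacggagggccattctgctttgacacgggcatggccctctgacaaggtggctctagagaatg
Gm5444, chr13:4771593-4771743, plus strand: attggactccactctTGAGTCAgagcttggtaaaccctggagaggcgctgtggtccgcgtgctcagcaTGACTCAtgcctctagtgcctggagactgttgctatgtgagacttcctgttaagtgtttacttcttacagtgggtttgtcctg
Gm20125, chr10:16996913-16997063, minus strand: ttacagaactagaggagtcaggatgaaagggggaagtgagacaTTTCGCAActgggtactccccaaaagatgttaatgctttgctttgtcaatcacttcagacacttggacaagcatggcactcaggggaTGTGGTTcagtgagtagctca
Gm14009, chr2:128190335-128190485, plus strand: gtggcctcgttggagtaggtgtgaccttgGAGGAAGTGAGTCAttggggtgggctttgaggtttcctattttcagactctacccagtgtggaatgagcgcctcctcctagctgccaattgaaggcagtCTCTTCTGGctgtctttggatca
In 9030404E10Rik the C/EBP string lay at the summit itself. In Gm14009 the PU.1 and AP-1 strings stood end to end. Gm5444 held 2 AP-1 strings.

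Around the lncRNA starts the open regions were centred just upstream. The summit lay upstream of the nearest lncRNA start in 467 regions (64.2%) and downstream in 258. The median distance from summit to start was 239 bp, and 259 regions (35.6%) had their summit within 100 bp. The 100 bp just before the start held 193 summits, of which 57 were CpG-rich, and the 100 bp from the start on held 65. The start itself lay inside the open region in 391 of the 727.

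**Figure D1:**
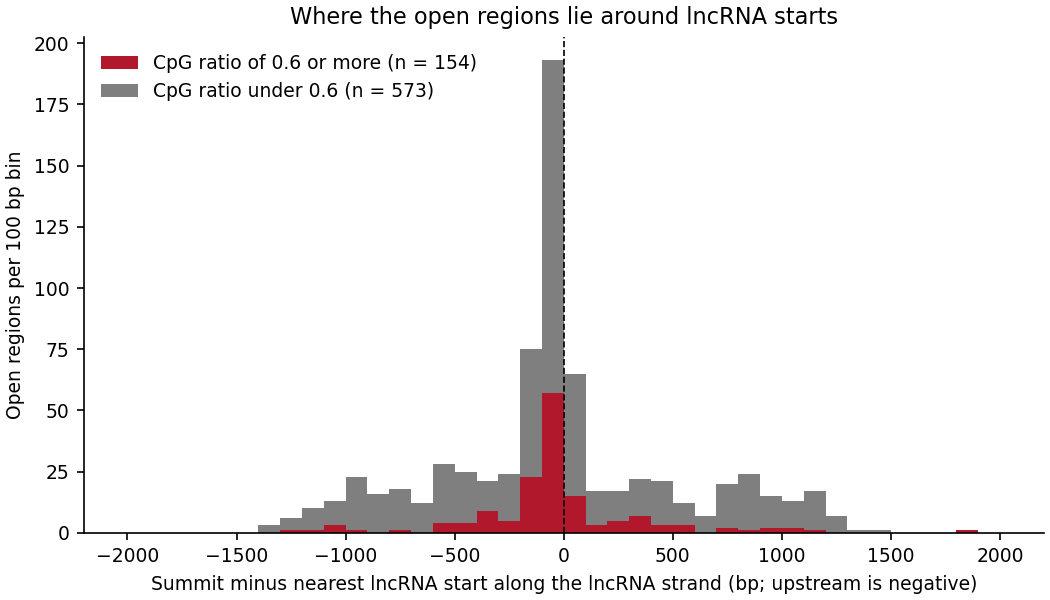
Number of open regions per 100 bp bin (y axis) by the distance of the summit from the nearest lncRNA start along its strand in bp (x axis, upstream negative), with the 154 CpG-rich regions in red stacked under the 573 CpG-poor regions in grey. The bin of 100 bp before the start is the highest, with 193 regions, and low shoulders run to beyond 1000 bp on both sides.

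CpG-rich regions lay closer to the lncRNA start than CpG-poor regions. The median distance was 113 bp for CpG-rich and 322 bp for CpG-poor regions, and the start lay inside the region in 77.3% of the first and 47.5% of the second. Regions within 100 bp of the start were CpG-rich in 27.8%, and those 501 to 1000 bp away in 8.05%. The median width was 663 bp in CpG-rich and 428 bp in CpG-poor regions, beside 633 bp at coding promoters and 377 bp at other distal regions. The widest were at G730013B05Rik (2001 bp), Gm6410 (1658 bp), Gm26887 (1645 bp), 2410080I02Rik (1451 bp) and Gm15287 (1406 bp).

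The regions were mostly intergenic. Of the 727, 561 (77.2%) lay outside protein-coding genes, 138 (19%) in a coding intron and 28 in a coding exon. Among other distal regions 49.6% were intergenic and 46.7% intronic. The median distance to the nearest protein-coding start was 22.3 kb, beside 17.3 kb for other distal regions. In 162 regions the lncRNA gene ran antisense to a coding gene that overlapped it, and 26 regions served lncRNA starts on both strands. Nearly all the nearest lncRNA genes were spliced, with more than 1 exon in 688 regions (94.6%). The share of all open regions that lay at lncRNA starts ran from 1.87% on chromosome 4 to 3.77% on chromosome 17.

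Fold enrichment, the authors' value of signal over background for a peak, had a median of 6.03 and ranged from 1.71 to 20.6. In the looser peak set of each replicate alone the median was 5.79 in replicate 1 and 5.68 in replicate 2 (5.73 ± 0.0817, SD, n = 2). CpG-rich regions stood at 6.84 and 6.82, and CpG-poor regions at 5.63 and 5.44. The CpG-rich values were above the CpG-poor ones in both replicates by more than the spread between them. Coding promoters were higher still (7.21 ± 0.0563), and other distal regions (5.72 ± 0.174) lay at the level of all lncRNA starts within the spread. With 2 values against 2, no exact permutation test can go below p = 0.333, so these comparisons rest on the values themselves.

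The replicates gave close folds for the same regions. Of the 727, 662 had a peak in both looser sets, 25 in replicate 1 only, 27 in replicate 2 only and 13 in neither. Over the 662 the log2 ratio of replicate 2 to replicate 1 had a median near 0 (-0.0169), with an SD of 0.236, and 0 regions were more than 2-fold apart. Pearson's r of the log2 folds was 0.885 and Spearman's rho was 0.858, as a description across regions of the same 2 libraries. Over all 25400 open regions with a peak in both looser sets these were 0.879 and 0.862, and 10 were more than 2-fold apart. The conservative set was made from both replicates, and the 662 had to have a peak in each. Close folds are thus partly set by how the regions were chosen.

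**Figure D2:**
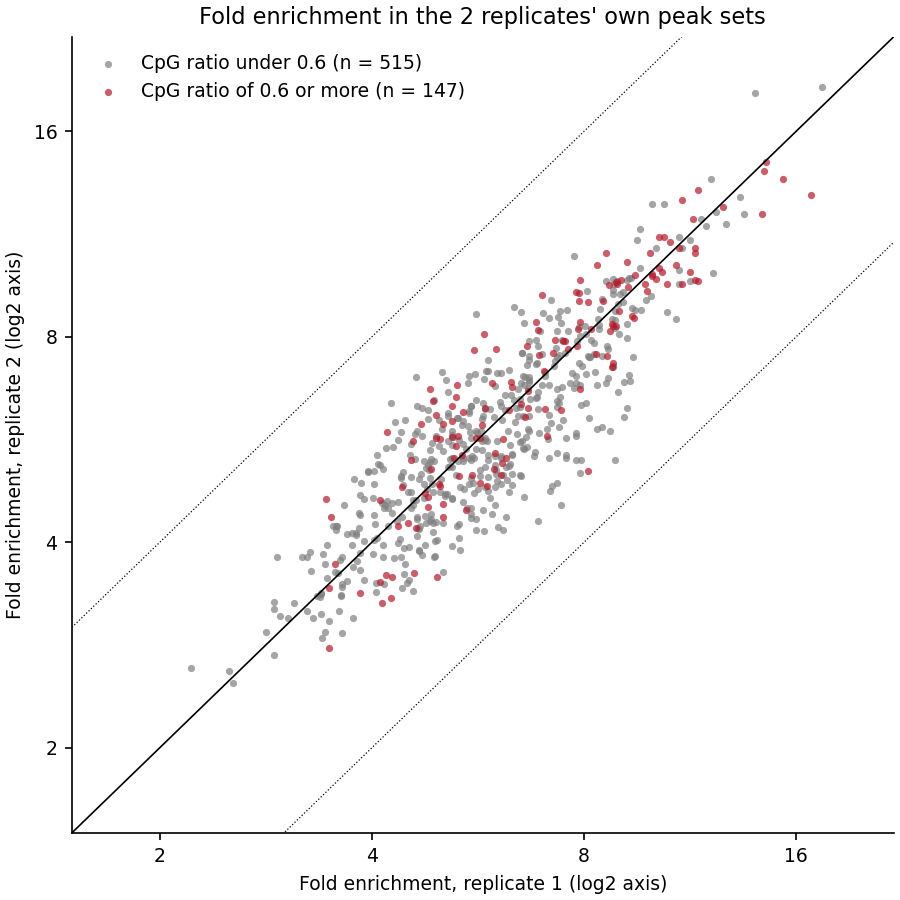
Fold enrichment of 662 regions in replicate 1 (x axis) and replicate 2 (y axis), both on log2 axes, with CpG-rich regions in red and CpG-poor in grey; the solid line marks equal values and dotted lines 2-fold differences. All points lie between the dotted lines, and the highest are at 17.4 and 18.6 (BC002059).

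In the stricter peak sets of the replicates, CpG-rich lncRNA starts were found again more often than CpG-poor ones. The IDR-thresholded set of each replicate keeps peaks whose rank is repeatable within that replicate. It overlapped 400 of the 727 regions in replicate 1 (55%) and 416 in replicate 2 (57.2%), against a background over all 27898 regions of 59.7% and 60.9%. Both sets overlapped 334 regions (45.9%), against a background of 50.3%. The shares at lncRNA starts were thus a little under those of all regions. Among CpG-rich lncRNA starts 75.3% and 77.3% were found (76.3% ± 1.38, SD, n = 2), and among CpG-poor ones 49.6% and 51.8% (50.7% ± 1.6).

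Set beside regions of like CpG content, the lncRNA starts lay between or at the level of the others. CpG-rich coding promoters reached 83.6% ± 2.23, above the CpG-rich lncRNA starts in both replicates. CpG-rich distal regions with no annotated lncRNA start within 1 kb stood at 63.4% ± 1.25, below them in both. CpG-poor distal regions stood at 49.2% ± 0.103, within the spread of the CpG-poor lncRNA starts. CpG-poor coding promoters reached 65.2% ± 0.952, above the CpG-poor lncRNA starts in both replicates. Regions that held the lncRNA start inside them were found more often (64.5% ± 1.45) than regions beside it (46.4% ± 1.68). A wider region can more easily both hold a start and meet an overlap of 1 bp. Median widths differed between the classes, with 687 bp at CpG-rich and 498 bp at CpG-poor coding promoters. They were 511 bp at CpG-rich and 374 bp at CpG-poor distal regions. The part of width in these shares was not tested.

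**Figure D3:**
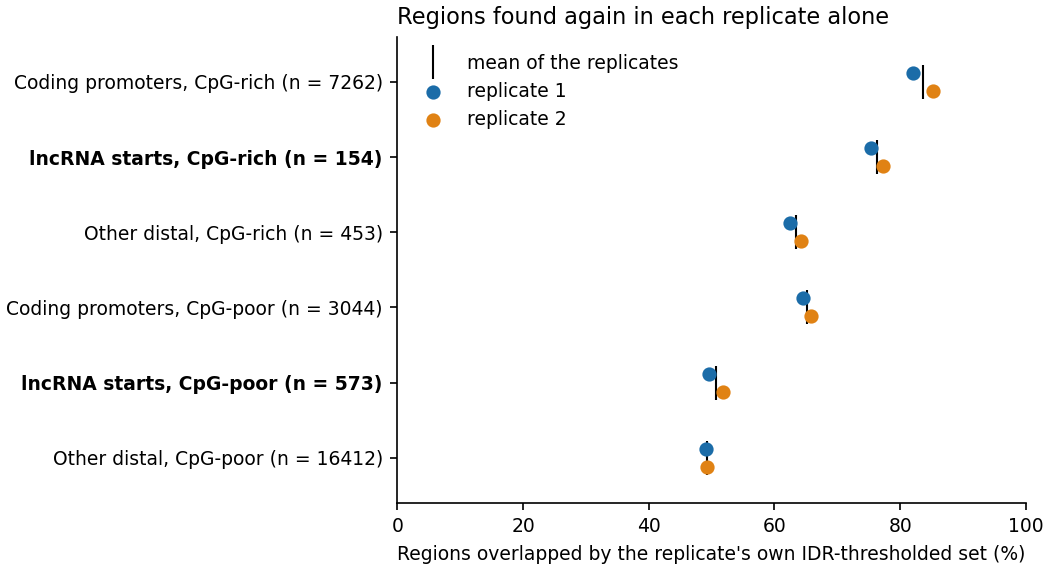
Share of regions (x axis, %) overlapped by the own IDR-thresholded peaks of replicate 1 (blue) and replicate 2 (orange), with the mean as a bar, for coding promoters, lncRNA starts and other distal regions split at a CpG ratio of 0.6 (y axis). The CpG-rich lncRNA starts lie at 75.3% and 77.3% and the CpG-poor ones at 49.6% and 51.8%.

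Motif strings differed between the CpG classes. The split is itself by sequence content, and its part in these differences was not tested. The SP/KLF and ETS strings each hold a CG, so their higher shares in the CpG-rich class are partly built in. In flanking windows 500 bp from the summit the SP/KLF string was found in 15.9% at CpG-rich and 6.46% at CpG-poor lncRNA starts. Within 100 bp of the summit, on either strand, GGGCGG of the SP and KLF factors was found in 57.1% of CpG-rich and 15.4% of CpG-poor lncRNA starts, beside 27.1% of all open regions of the series. The NF-Y string GATTGG, the inverted CCAAT box, was found in 22.1% and 9.42% (11.4% of all regions). The ETS string CCGGAAG was found in 11.7% and 4.71% (8.29% of all regions), and was rarer at CpG-rich lncRNA starts than at CpG-rich coding promoters (21.3%). In the replicates' own sets the ETS share was 12.6% ± 1.7 (SD, n = 2) at CpG-rich lncRNA starts and 22.5% ± 0.142 at CpG-rich coding promoters. The gap was larger than the spread between the sets, which hold many of the same regions. For NF-Y the same sets gave 23.8% ± 0.788 and 23.4% ± 0.511, which did not differ beyond that spread.

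Strings of myeloid factors were more frequent at the CpG-poor starts. PU.1, the master regulator of the myeloid lineage, had its string GAGGAAG in 23.7% of CpG-poor and 11% of CpG-rich lncRNA starts, beside 20.3% of all regions. C/EBP factors (TTGCNNAA) had 11.2% and 5.19%, beside 10.8%. AP-1 (TGANTCA) had 12.2% and 1.3%, beside 8.53%. RUNX (TGTGGTT) had 6.81% and 1.95%, beside 7.23%, and IRF (GAAANNGAA) had 7.68% and 4.55%, beside 6.78%. At least 1 of these 5 strings was present in 272 of 573 CpG-poor starts (47.5%) and 34 of 154 CpG-rich starts (22.1%), beside 42.7% of all regions. CpG-poor distal regions had 53.2% and CpG-rich coding promoters 21%. By string, CpG-poor distal regions had 25.2% for PU.1, 13.8% for C/EBP, 11.6% for AP-1, 10% for RUNX and 8.24% for IRF. In the replicates' own sets the PU.1 share was 22.8% ± 0.567 at CpG-poor lncRNA starts and 27.6% ± 0.0235 at CpG-poor distal regions. The RUNX shares there were 5.96% ± 0.47 and 10.8% ± 0.517, and the C/EBP shares 13.3% ± 0.0295 and 14.9% ± 0.253. These 3 strings were less frequent at the lncRNA starts in both sets, which hold many of the same regions. The SD between the sets does not measure how far a share over 286 or 302 lncRNA starts may vary by sampling. Small gaps, as for C/EBP, are thus not settled by it. For AP-1 (12.7% ± 0.712 and 12.7% ± 0.0948) and IRF (8.17% ± 0.314 and 8.37% ± 0.153) the shares did not differ beyond the spread.

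Most strings were more frequent at the summit than beside it. Over all 727 regions the PU.1 share was 21%, and in flanking windows 500 bp away it was 8.94%, a ratio of 2.35, beside 2.65 over all open regions and 3.29 over other distal regions. The ratio to the flanks was 6.67 for NRF1 (10 regions), 4.09 for ETS, 2.86 for SP/KLF, 2.07 for NF-Y, 1.81 for CTCF, 1.8 for AP-1, 1.53 for RUNX, 1.4 for C/EBP and 1.05 for IRF. Over all open regions the ratios were, in the same order, 8.32, 5.19, 2.81, 1.98, 1.8, 1.64, 1.5, 1.46 and 1.1. The ratios at lncRNA starts were thus mostly near or below those of all regions. At CpG-rich lncRNA starts the ratio was 1.7 for PU.1 but under 1 for C/EBP (0.762), AP-1 (0.333), RUNX (0.75) and IRF (0.667). TATAAA, the TATA box, was found in 5.91% of the regions and 10.6% of the flanks (4.81% of all regions). The CTCF core string had 22.3% (20.5% of all regions), and the NRF1 string TGCGCATGC only 1.38% (1.13%). The PU.1, ETS and IRF strings share purine runs and can overlap, and a match is only a match of letters.

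**Figure D4:**
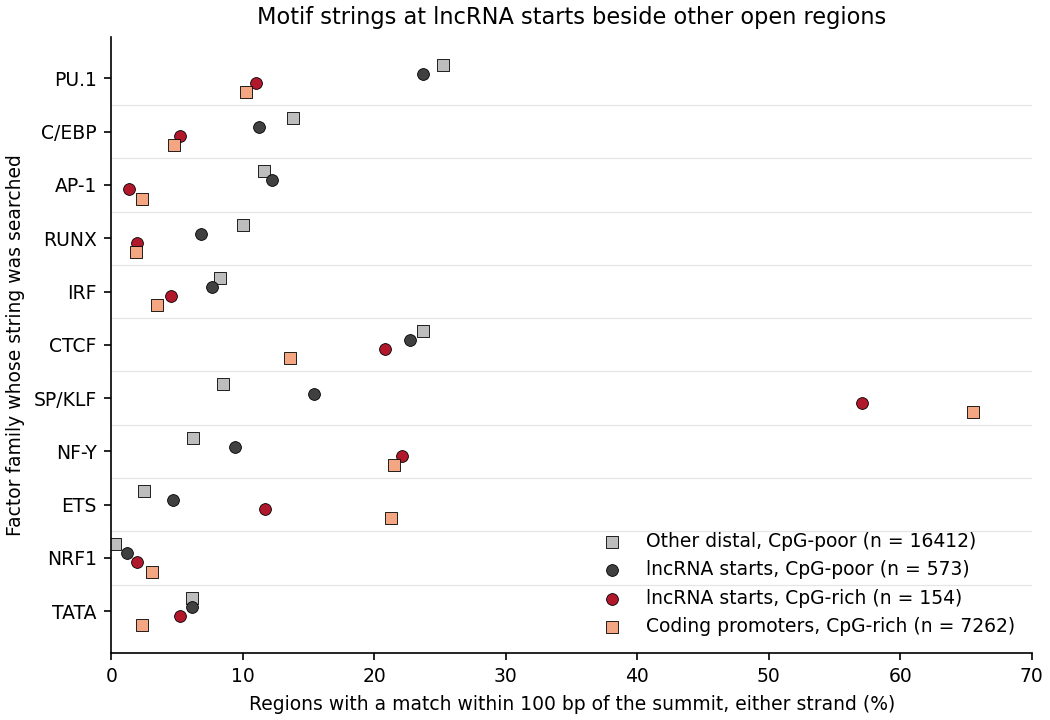
Share of regions (x axis, %) with a match to each factor's string (y axis) within 100 bp of the summit, for CpG-poor and CpG-rich lncRNA starts (circles) and for CpG-poor distal regions and CpG-rich coding promoters (squares). The CpG-rich lncRNA starts lie near the coding promoters for NF-Y (22.1% and 21.5%) and below them for ETS (11.7% and 21.3%), and the CpG-poor lncRNA starts lie a little below the distal regions for PU.1 (23.7% and 25.2%).

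Seen from the genes, few lncRNA genes had such a region. Of 9065 annotated lncRNA genes, 662 (7.3%, which is also the background for the gene lists below) had an open region of this kind at a start. Another 1000 (11%) had an open region only within 1 kb of a protein-coding start, where the 2 genes cannot be told apart, and 7403 had none. Among protein-coding genes 47.7% had an open start. In the replicates' own thresholded sets 4.31% and 4.53% of lncRNA genes were open.

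Genes with a CpG-rich start were open more often. For these genes the CpG ratio was taken within 500 bp of the lncRNA start, not of a summit. Of 7552 lncRNA genes with a start more than 1 kb from every coding start, 446 had a CpG-rich start, and 134 of these (30%) had a region of this kind. Of the 7106 with CpG-poor starts 518 (7.29%) had one. With open regions at coding promoters counted too, the shares were 49.1% and 8.11%. In the replicates' own sets the shares were 23.7% ± 0.159 and 4.1% ± 0.179 (SD, n = 2). Coding genes had an open start in 74.3% with CpG-rich and 24% with CpG-poor starts. Processed transcripts were open in 13.7% (103 of 753), long intergenic RNAs in 7.53% (392 of 5209) and antisense RNAs in 5.63% (164 of 2913). With open regions at coding promoters counted too, the shares were 37.6%, 11.7% and 22.2%, so that the order of the last 2 turned. By number of exons, among genes far from coding starts, 9.89% were open with 1 exon, 7.79% with 2 exons and 9.51% with 5 or more.

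Hosts of small RNAs often had an open start. Of 24 annotated hosts, 11 (45.8%) had an open region of this kind, beside 7.3% of all lncRNA genes, 6 had one only at a coding promoter and 7 had none. Snhg6, a host of a small nucleolar RNA, had folds of 10.4 in replicate 1 and 11.2 in replicate 2 (10.8 ± 0.58, SD, n = 2), with its summit 57 bp upstream of the start (chr1:9943819-9944327). Snhg17 had 10.5 and 9.55, and Snhg12 had 9.91 ± 0.139 (SD, n = 2). Snhg5 had 8.92 and 9.57, Snhg8 had 7.83 and 8.21, and Snhg20 had 6.64 and 7.76. In all 6 the region was found in both replicates' thresholded sets and was CpG-rich. Snhg12 had a further, CpG-poor region at a second start with 4.50 and 4.73.

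The listed microRNA hosts Mir22hg, Mir17hg, Dleu2 and Mir142hg had lower mean folds than the main regions of these 6. By the authors' −log10 p of each peak the order was not the same for Mir22hg. Its main region stood above Snhg5, Snhg12, Snhg17, Snhg8 and Snhg20 and below Snhg6. Mir17hg, Dleu2 and Mir142hg stood below all 6 by that value too. Mir22hg, which carries miR-22, had 5.29 and 5.72 at its main start, and Snhg15, a small nucleolar RNA host, had a similar 5.79 and 6.29. Mir17hg, the host of the miR-17-92 cluster, had 4.2 and 5.79 (5.0 ± 1.12), and replicate 1 did not pass its own threshold. Dleu2, the host of miR-15a and miR-16-1, had 5.05 and 4.35 in its stronger region nearest to it alone. It shared a further region with Gm27017 that had 6.66 and 6.67 (chr14:61648514-61649474). Mir142hg, the host of the blood-cell microRNA miR-142, had 3 CpG-poor regions, of which the strongest had 3.60 and 3.77 (CpG ratio 0.292). Over all 727 regions, 51 lay at a lncRNA gene with an annotated small RNA inside it, and 33 of these (64.7%) were CpG-rich, beside 17.9% of the other 676.

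LncRNAs that are known from most tissues were open as a group. Of 14 annotated genes in that list, 9 (64.3%) had an open region of this kind, 5 had one at a coding promoter and 0 had none. The lists share genes, so their shares are not separate results. Of the 9, Snhg12 is also a listed host and Kcnq1ot1 is also in the developmental list. Malat1, Neat1 and Lncpint are also in the immune list. Dancr, known for holding progenitor cells undifferentiated, had the highest folds in the list, 16.8 and 12.9 (14.8 ± 2.78). Replicate 1 was the higher of the 2. Kcnq1ot1, the imprinted transcript that silences neighbouring genes in cis, had 11.9 and 11.6 in an intron of Kcnq1. Crnde had 10.1 and 9.72, Epb41l4aos had 9.77 and 9.57, and 2900097C17Rik, the mouse Norad, which binds Pumilio proteins, had 8.76 and 7.22. The abundant nuclear RNAs had regions of lower fold. Malat1, a nuclear speckle RNA, had 5.04 and 5.96 at its start and 6.10 and 5.01 in a region 935 bp upstream. Neat1, the scaffold of paraspeckles, had only 2.90 and 2.73, although both replicates' thresholded sets held it. The authors' −log10 p of each peak gave another order. By it both Malat1 regions stood above 2900097C17Rik and below Dancr, Kcnq1ot1, Crnde and Epb41l4aos, and Neat1 stood below 2900097C17Rik.

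**Figure D5:**
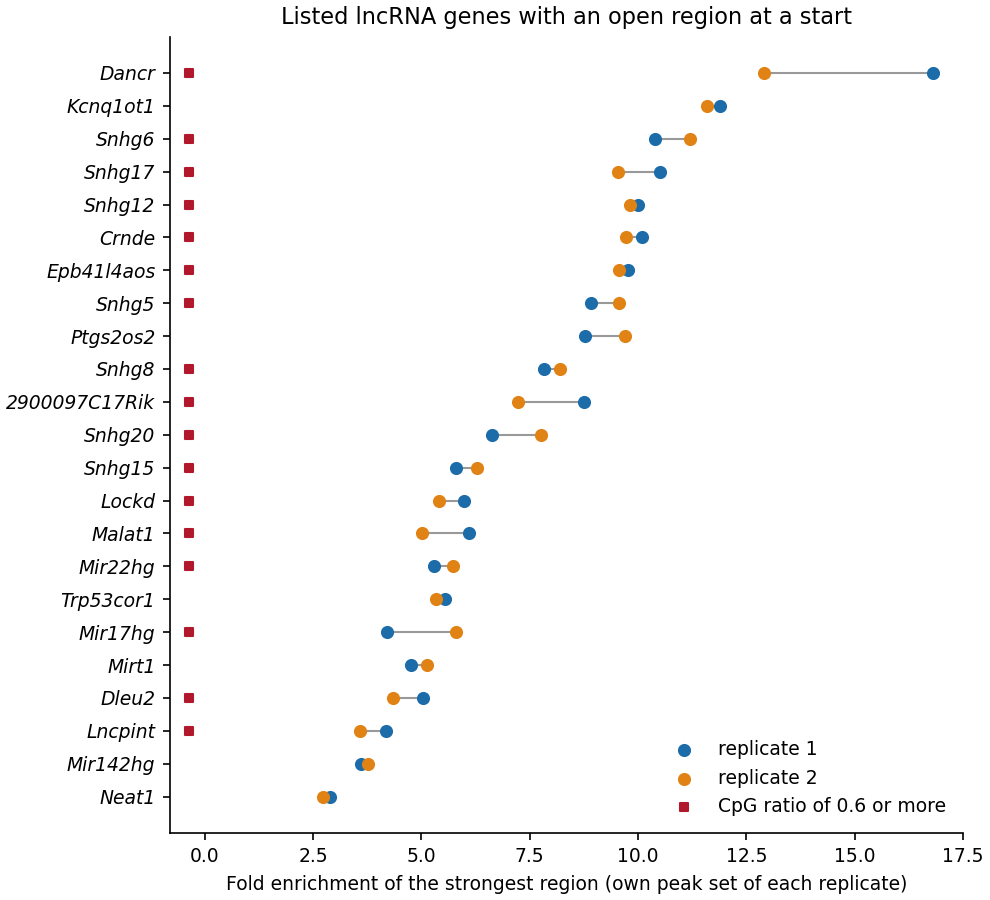
Fold enrichment (x axis) of the strongest region nearest to each of 23 listed lncRNA genes (y axis) in replicate 1 (blue) and replicate 2 (orange), with red squares at the genes whose region has a CpG ratio of 0.6 or more. Of the 10 genes with a mean fold of 8 or more, 8 are CpG-rich, and Neat1 is lowest with 2.90 and 2.73.

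In a list drawn up as immune lncRNAs, 9 of 23 annotated genes (39.1%) had an open region of this kind. A further 4 had one at a coding promoter and 10 had none. The list is broad, and not all of its genes are known mainly from immune cells. Of the 9, Malat1, Neat1, Lncpint, Dleu2 and Mir142hg were also counted in the lists above. Ptgs2os2, known as lincRNA-Cox2 and as a regulator of inflammatory genes in macrophages, had 8.78 and 9.71 (9.24 ± 0.655). Its region lay 64.4 kb from the start of Ptgs2, the coding gene of cyclooxygenase 2, and was CpG-poor with C/EBP and IRF strings. Mirt1 had 3 regions, with 4.77 and 5.14, with 4.85 and 4.40, and with 4.57 in replicate 1 only. Trp53cor1, known as lincRNA-p21 and lying 11.7 kb from Cdkn1a, had 5.54 and 5.34, and Lockd, next to Cdkn1b, had 5.98 and 5.4. Lncpint had 4.18 and 3.58 in its strongest region. Neither Trp53cor1 nor Lncpint was in a thresholded set of either replicate. Of the 10 without a region, the first by name were AW112010, Bvht and Lncbate1.

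Developmental and imprinted lncRNAs lay near the background. Of 32 annotated genes, 1 (3.12%) had a region of this kind, beside 7.3% of all lncRNA genes, and 30 (93.8%) had none within 1 kb of a start, beside 81.7% of all lncRNA genes. The first of the 30 by name were Airn, Dio3os and Dlx1as. In the looser sets Airn had a peak of 3.13 in replicate 2 and Dlx1as one of 4.89 in replicate 1. The gene with a region of this kind was Kcnq1ot1, and Hotairm1, at the Hoxa cluster, had one at a coding promoter. Among the small RNA hosts, the first by name without a region were Mir124a-1hg, Mir155hg and Mir9-3hg. Over all lists 45 genes had no open region. In the looser sets 5 of them had a peak in replicate 1 and 3 in replicate 2, and 2 had one in both. Those 2, named after their values were seen, were Pvt1 with 3.53 and 4.9 and Ptgs2os with 3.25 and 3.17.

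The strongest regions were often at little-studied genes. By the mean rank of fold in the replicates, the first was BC002059 on chromosome 17 with 17.4 and 18.6 (18.0 ± 0.85). Gm10010 followed with 14.5 and 14.4, and then, at equal mean rank, AA465934 with 15.3 and 13.6, Gm5165 with 14.0 and 18.2 and 5430416N02Rik with 14.4 and 14.0. Of the 15 regions of highest rank, 14 had their summit within 160 bp of the lncRNA start, 13 of them with the summit upstream, and all 15 were in both replicates' thresholded sets. An NF-Y string was present in 9, an SP/KLF string in 6, an ETS string in 5 and a PU.1 string in 3, and 7 were CpG-rich. Over all open regions these strings were found in 11.4%, 27.1%, 8.29% and 20.3%. The counts are not of independent sequences. BC002059, Gm5165, Gm6712, E430024I08Rik and Gm20939 were near copies of other regions, as given below. Each of these held an NF-Y string, and all but Gm20939 an ETS string. The exception in position was Gm29918, with 13.5 and 12.1, whose summit with a PU.1 string lay 715 bp downstream of the start. Gm32250, 56.3 kb from Cd34, had 12.7 and 11.7 at a CpG ratio of 0.131, with a PU.1 string.

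Several of the strongest regions were near copies of one another. Windows of 201 bp around the summits were aligned with each other, and 18 regions in 5 groups matched another one over at least 100 bp with at least 80% identity. BC002059, Gm5165 and Gm6712, printed above in part, were 93% to 96.4% identical and lay on chromosome 17. Gm6712 had 13.3 and 12.8. E430024I08Rik (12.1 and 13.6), Gm47467, Gm47469 and Gm46430 formed a second group on chromosome 13 with 88.8% to 94.8% identity. A further group joined Snhg5 with 9430037G07Rik and 9330159M07Rik. The 18 regions had a median fold of 10.6 and ranged from 6.82 to 20.6. How the authors' processing treated reads that match several copies is not given in the sources used here, so the folds of these 18 are uncertain. Further, 26 of the 727 regions lay within 1 kb of a coding start in RefSeq that was not among the GENCODE coding starts, with Gm5165, Gm6712, Gm20939 and Gm13274 among the 15 strongest.

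Among CpG-poor regions the highest folds with myeloid strings were at several other genes. For AP-1 these were Gm5444 with 10.1 and 10.8 and Gm19510, 147 kb from Trib1, with 12.2 and 9.93. Gm20125 held C/EBP and RUNX strings and had 9.6 and 10.1. Rab11fip4os1, in an intron of Rab11fip4, had 11.0 and 10.8 with a RUNX string. F730311O21Rik, 25.6 kb from Nuak2, had 10.5 and 8.7 with PU.1 and IRF strings, and Gm12320 had 9.33 and 9.75 with an IRF string.

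Coding genes of the myeloid lineage were as frequent among the neighbours as at other distal regions. The nearest coding start belonged to a gene of a myeloid list in 17 of the 727 regions (2.34%) and in 2.34% of other distal regions, beside 1.78% of all open regions and 0.834% of coding promoter regions. The nearest coding gene had an open promoter in 69.7% of lncRNA starts and 66.8% of other distal regions. Of the 17, the region at Il1bos lay 1.96 kb from Il1b, the gene of interleukin 1 beta, and had 9.78 and 9.05 (9.41 ± 0.519). D930028M14Rik, antisense in an intron of Pou2f2, the gene of the transcription factor Oct-2, had 7.73 and 10.5. 9030404E10Rik, 25.6 kb from the Notch target Hes1, had 9.29 and 6.89, and Gm31897, 7.93 kb from the integrin gene Itgal, had 6.85 and 6.53. Gm27201, in an intron of the ETS factor gene Fli1, had 5.61 and 5.81. Gm14009, 64.3 kb from Bcl2l11, the gene of the death protein Bim, had 4.75 and 4.37 and was in neither thresholded set.

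Some coding genes were the nearest one to several open lncRNA starts, which could lie far away. The 727 regions had 593 different nearest coding genes, 494 of them with 1 region and 6 with 4 or more. These 6 were chosen by that count. Ly86, which codes for MD-1, a partner of the receptor RP105 on myeloid and B cells, had 7 regions at 6 lncRNA genes over 294 kb. They lay 19.2 to 198 kb from its start. The strongest, at Gm4035, had 8.49 and 9.07, and 3 of the 7 were in both thresholded sets. Dusp6, a phosphatase gene of the MAP kinase pathway, had 4 regions between 5.52 and 198 kb away. The nearest of them, at Gm48089 and 5.52 kb away, had 6.4 and 6.29 with a PU.1 string. Hes1 had 4 regions between 25.6 and 120 kb away, and 3 were in both sets. Mkln1 had 6 regions between 25.2 and 182 kb away, those of Lncpint among them, and 0 of the 6 were in both sets. The kinase gene Pim1 and Kctd12 had 4 each. Those of Pim1 lay within 5.87 kb of sequence, 53.1 to 58.4 kb away, and those of Kctd12 29.2 to 154 kb away.

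The highest regions seen in only 1 replicate's looser set were all at a moderate fold. Gm47710 had 7.29, AC026385.1 had 6.49 and 4930597A21Rik had 6.18 in replicate 1 alone. Gm31805 had 6.67 and Gm2396, near Bcl2a1a, had 6.34 in replicate 2 alone. At the distance limit of the rule, the last regions kept lay 1000 bp (Gm15964, fold 4.13) and 992 bp (1810059C17Rik, 5.39) from the lncRNA start. The first left out lay 1002 bp (Gm36756, 8.28) and 1003 bp (Gm29050, 6.35) away. At the coding limit, Gm15655 was kept at 1021 bp from Maf (3.97) and D830036C21Rik at 1022 bp from Ercc1 (4.25), while regions 999 bp from Clcn4 (3.37) and 980 bp from Elof1 (4.57) were not.

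The cell label was checked on coding promoters. Of 10 monocyte markers 9 had an open promoter, such as Csf1r, Cx3cr1, Ly6c2, Cd14 and Spi1. The marker without one was Ccr2. In the thresholded sets of replicates 1 and 2, 7 and 5 of the monocyte markers were open. Of 6 T cell markers 2 were open (Cd3d and Cd28), of 6 B cell markers 2 (Cd79b and Pax5), of 6 NK cell markers 1 (Prf1) and of 5 erythroid markers 1 (Klf1). Of 6 neutrophil and 6 platelet markers 0 were open. The neutrophil list held S100a8 and S100a9, which are also in the myeloid list used above. In the thresholded sets of replicates 1 and 2 the T cell markers had 1 and 2 open, the NK cell markers 2 and 0, and the B cell and erythroid markers 0 and 0. The part of other blood cells in the regions above was not tested. In a bulk sample, more cells with an open region and a more open region per cell cannot be told apart, and an open start does not show that the lncRNA is transcribed, since RNA was not measured.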

How the data were processed

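The data were ATAC-seq peak lists of blood monocytes in 2 replicates, with mm10 as the assembly per the labels. The authors deposited peaks of each replicate and peaks made from both, per the deposited README. Fold enrichment, a linear ratio over background, and the −log10 p of each peak are as the authors deposited them. The IDR score in the deposited lists, from 540 upward in the conservative set, ranks peaks by repeatability. Not given in the sources used here are the aligner, the peak caller and the treatment of reads with several matches. No counts were used, so depth is unknown and its effect on the number of peaks was not tested.

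The 39192 conservative peaks of chromosomes 1 to 19 were merged, each region taking its highest fold and the summit of its smallest p. Genes were those of GENCODE M21, with every transcript start of a lncRNA gene counted and only protein-coding transcripts for coding genes. Sequence was that of GRCm38.p6. A replicate's own thresholded or pseudoreplicated (looser) set found a region where 1 bp or more overlapped. Motif strings were searched 100 bp to each side of the summit. Summit windows were aligned with blastn 2.17.0, and the rest was done in Python 3.11.15 with pandas 2.3.3. On simulated regions the steps were checked and returned what they were made with. No test was run across regions, which are not replicates.

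Members, lists and strings were chosen with earlier results of these data known. Named were list genes with a region and up to 3 per list without, the 15 highest by mean rank, the 5 widest, the 5 highest in 1 replicate only, those at the distance limits, the 3 highest per string, and up to 15 near myeloid genes. Some of these are given by count only.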

Additional observations from a re-analysis of the deposited data

How the results depend on the processing

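The number of regions was 727, and 1335 in the replicated set of the series and 402 to 425 in the set of a single replicate. It was 525 with an IDR score of 830 or more, 563 with starts within 500 bp and 1024 within 2 kb. The remaining settings gave 648 to 706. The share of lncRNA genes with an open start (7.3%) was 12.6% in the replicated set, 5.48% with an IDR score of 830 or more, 4.31% to 4.53% without 1 replicate, 5.96% with starts within 500 bp, 9.93% within 2 kb, 6.69% with the 5′ end of the gene only, 6.96% with all transcripts of coding genes, 6.86% by the summit and 7.05% also away from RefSeq coding starts, an alternative chosen after seeing the data. The share found in both replicates (45.9%) was 25% in the replicated set, 63% with an IDR score of 830 or more, 48.1% within 500 bp, 42.7% within 2 kb, 47.5% with the 5′ end only and 44% where 50% of the region had to overlap; it needs both replicates and has no value without 1. The median fold (6.03) was 4.51, 6.89 and 6.73 to 7.04 in the replicated set, the stricter set and without 1 replicate. The median width (465 bp) was 364 bp, 521 bp, 498 bp and 432 bp in the replicated set, the stricter set, within 500 bp and within 2 kb. The median CpG ratio (0.337) was 0.348 in the other thresholded set, 0.308 in the replicated set, 0.354 in the stricter set, 0.363 to 0.368 without 1 replicate, 0.359 within 500 bp, 0.3 within 2 kb, 0.342 with the 5′ end only, 0.333 with all coding transcripts, 0.347 by the summit, 0.328 away from RefSeq starts and 0.353 within 250 bp of the summit. Sets with more or fewer peaks give other counts by construction, and for the medians the cause was not tested. In windows of 50 bp to each side, the PU.1 share was 14.9% and the SP/KLF share 17.2%.

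With 2 replicates of unknown depth, a start without a peak was not detected as open, which does not show it closed. No paired analysis was possible because there is only 1 group.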
